A study of Mus musculus with 3 samples.

Results

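The genes described here are 8 members of the Tox family and of the follicular helper-like programme: the nuclear factors Tox, Tox2 and Tox4, the coactivator Pou2af1, the SLAM receptors Slamf1 and Slamf6, their adaptor Sh2d1a, and the surface ligand Cd200. They were chosen by name, out of 18193 genes that had a probe set with a single gene symbol, and every such probe set of a member was taken. This gave 16 probe sets, and 12 of them rose above the detection floor on at least 1 array, with at least 1 for each gene. The choice was made with results of these arrays known, so the ratios below describe the arrays and test nothing.

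RNA came from CD4+CD25- T cells that were purified from the spleen and lymph nodes of mice on the BALB/c background, all female and aged 6 to 8 weeks. All cells lacked both Stat6, which carries the IL-4 signal, and T-bet, the Th1 factor encoded by Tbx21, and there was no array of cells with these genes intact. Stimulation lasted 2 days and used antibodies to CD3 (5 µg/ml, bound to the plate) and to CD28 (1 µg/ml). The 3 cytokine conditions had 1 array each: IL-6/TGFbeta, IL-6/IL-23, and TGFbeta by itself. Where they were given, IL-6 and IL-23 were each used at 10 ng/ml and TGFbeta at 5 ng/ml. The study set IL-6/TGFbeta against TGFbeta to find genes of Th17 polarization, and against IL-6/IL-23 to find genes that go with IL-10 rather than with IL-17. The IL-6/TGFbeta and IL-6/IL-23 cultures differed in 2 cytokines at once, so no ratio between them belongs to 1 of these. The IL-6/IL-23 and TGFbeta cultures differed in IL-6, IL-23 and TGFbeta together, so the same holds for that pair.

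Follicular helper T cells are the CD4 T cells that help B cells in germinal centres, and IL-6 is among the cytokines that favour them. Their programme overlaps with that of Th17 cells in IL-21, Maf and Batf. Receptors of the SLAM family bind each other between T and B cells and signal through the small adaptor SAP, the product of Sh2d1a, without which T cells fail to hold on to B cells and germinal centres do not form. Tox proteins carry an HMG box that binds bent DNA. Tox is needed for CD4 T cell development in the thymus and marks chronically stimulated T cells, and Tox2 has been tied to follicular helper cells. Pou2af1 (OBF-1 or OCA-B) joins the octamer factors Oct1 and Oct2 on DNA and is best known from B cells. Cd200 encodes a membrane glycoprotein that calms myeloid cells through its receptor and is abundant on follicular helper cells.

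The upstream DNA of the 2 genes that were higher with IL-6/TGFbeta than on both other arrays, and of 2 genes that were highest on the IL-6/IL-23 array, is shown here so that their start regions can be set side by side. Each window holds the 250 bases before an annotated transcription start (RefSeq, GRCm38.p6), read 5′ to 3′ on the gene's strand. Capitals mark matches, on either strand, to 6 short motifs: the octamer ATGCAAAT, the STAT site TTCNNNGAA, the AP-1 site TGANTCA, the Smad site CAGACA, the aryl hydrocarbon receptor core GCGTG, and TGCTGA, a part of the Maf recognition element. RefSeq lists 5 starts for Tox2, and 1 of each of its 2 start regions is shown.
Tox2, chr2:163202877-163203126, plus strand: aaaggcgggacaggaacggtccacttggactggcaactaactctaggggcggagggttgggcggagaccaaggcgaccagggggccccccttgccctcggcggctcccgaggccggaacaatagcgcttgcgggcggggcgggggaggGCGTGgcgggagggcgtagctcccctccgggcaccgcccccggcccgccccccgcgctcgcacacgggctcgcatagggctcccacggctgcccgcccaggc
Tox2, chr2:163225203-163225452, plus strand: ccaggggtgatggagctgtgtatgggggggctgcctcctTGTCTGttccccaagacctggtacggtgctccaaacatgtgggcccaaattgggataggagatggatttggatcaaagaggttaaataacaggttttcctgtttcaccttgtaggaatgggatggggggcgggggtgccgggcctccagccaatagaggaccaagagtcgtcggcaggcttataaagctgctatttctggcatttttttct
Pou2af1, chr9:51213440-51213689, plus strand: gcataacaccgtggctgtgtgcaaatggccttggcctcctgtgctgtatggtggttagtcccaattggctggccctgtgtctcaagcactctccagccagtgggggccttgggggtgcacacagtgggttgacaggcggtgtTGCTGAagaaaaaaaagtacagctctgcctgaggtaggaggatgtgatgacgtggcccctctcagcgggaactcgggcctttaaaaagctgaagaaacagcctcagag
Slamf1, chr1:171766882-171767131, plus strand: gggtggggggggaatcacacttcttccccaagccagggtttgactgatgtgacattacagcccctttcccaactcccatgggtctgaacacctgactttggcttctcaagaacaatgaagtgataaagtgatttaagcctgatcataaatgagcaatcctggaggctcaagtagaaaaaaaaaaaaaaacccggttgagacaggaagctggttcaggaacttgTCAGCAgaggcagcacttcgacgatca
Cd200, chr16:45409054-45409303, minus strand: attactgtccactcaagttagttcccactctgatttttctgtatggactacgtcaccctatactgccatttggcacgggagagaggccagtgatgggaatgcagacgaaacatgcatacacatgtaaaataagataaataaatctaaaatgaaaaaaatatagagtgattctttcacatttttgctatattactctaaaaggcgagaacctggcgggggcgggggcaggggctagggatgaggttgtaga
The upstream Tox2 window shown was 75.2% G and C and held 1 aryl hydrocarbon receptor core, a match found in 28.2% of 32851 windows of this length. The further upstream Tox2 windows, not shown, held none of the 6 motifs. The downstream Tox2 window, at 52.8% G and C, held 1 Smad match (17.1% of windows). Pou2af1 and Slamf1 each held 1 match to TGCTGA (16.1% of windows), starting 108 and 27 bases before the start. Cd200 held none of the 6 motifs. No window of the 6 members with an entry held the octamer (1.60% of windows), the STAT site (7.02%) or the AP-1 site (6.75%). Matches of these lengths are letters in a window and say nothing of binding.

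Levels are quantile-normalized intensities in arbitrary units, and they can be compared between arrays for 1 probe set but not between genes. A gene is read from its brightest probe set. The floor is the 95th percentile of 81 probe sets of tissue-restricted genes, at an intensity of 109, and values under it have no order. Ratios are on the log2 scale. A gene counts as higher or lower when the ratio is at least 2-fold and the brighter array is above the floor. With 1 array each there is no replicate error. The spread of ratios between probe sets of 1 gene is the SD for 1 probe set, estimated from the median absolute deviation. This spread was 0.21 for IL-6/TGFbeta over TGFbeta, 0.27 for IL-6/TGFbeta over IL-6/IL-23 and 0.29 for IL-6/IL-23 over TGFbeta. Plain SDs were larger, at 0.23, 0.30 and 0.32 for the same pairs. The spread leaves out differences between cultures, mice and arrays. As deposited, the arrays differed in brightness, with medians of 28.1 with IL-6/TGFbeta, 17.8 with IL-6/IL-23 and 35.8 with TGFbeta, so the scaling matters most for ratios that involve the IL-6/IL-23 array.

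**Figure D1:**
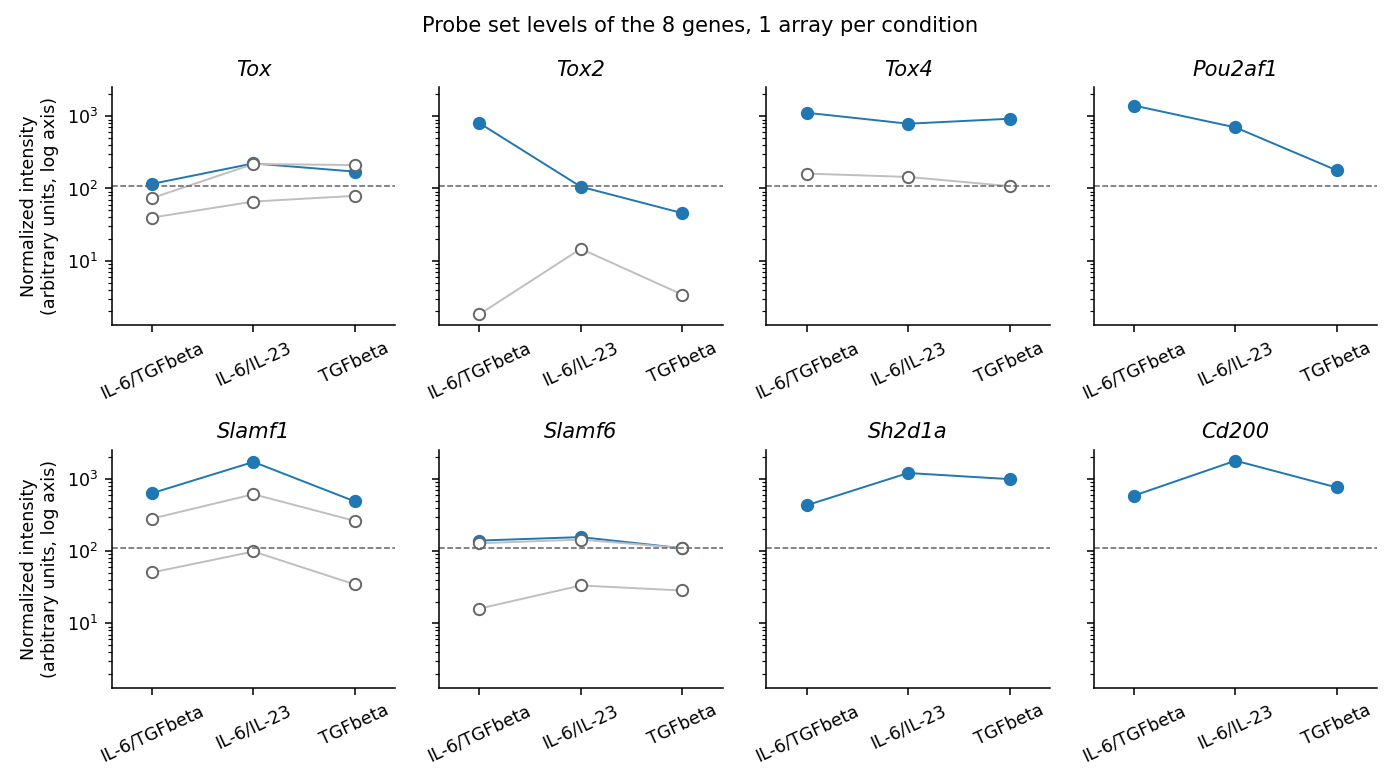
Normalized intensity (arbitrary units, log axis) of every probe set of the 8 genes on the IL-6/TGFbeta, IL-6/IL-23 and TGFbeta arrays. Filled points are the brightest probe set of a gene, open points its further probe sets, and the dashed line is the floor at 109; Tox2 stood above it on the IL-6/TGFbeta array alone.

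Of the Tox family, Tox2 differed most between arrays. Its bright probe set (1440156_s_at) read 801 with IL-6/TGFbeta, against 106 with IL-6/IL-23 and 45.7 with TGFbeta, and the last 2 values are under the floor. The deposited intensities behind them were 798 with IL-6/TGFbeta, 72.0 with IL-6/IL-23 and 64.9 with TGFbeta. Tox2 was thus at least 7.36-fold higher with IL-6/TGFbeta than on either other array, and the ratio between IL-6/IL-23 and TGFbeta cannot be read at this floor, which lies just above the IL-6/IL-23 value. It could be read under 4 alternatives, and with the floor at the 90th percentile Tox2 counted as 2-fold higher with IL-6/IL-23 than with TGFbeta. The bound depends on the floor too. Over TGFbeta it was at least 17.1-fold with the floor at the 90th percentile and at least 1.90-fold at the 99th, which ends the 2-fold call over both other arrays. The other Tox2 probe set (1457757_at) was under the floor on all 3 arrays, at 1.82 with IL-6/TGFbeta, 14.7 with IL-6/IL-23 and 3.41 with TGFbeta. The result for Tox2 thus rests on 1 probe set, whose suffix _s_at marks probes that can match more than 1 transcript, and whether another transcript contributes was not tested.

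Tox itself, the founding member, was dimmest with IL-6/TGFbeta. Its brightest probe set (1425483_at) read 116 with IL-6/TGFbeta, 222 with IL-6/IL-23 and 171 with TGFbeta. The ratios were -0.56 over TGFbeta and -0.94 over IL-6/IL-23, or 2.69 and 3.45 times the probe-set spread, and neither reached 2-fold. After median scaling the ratio over IL-6/IL-23 passed it at -1.04. Another probe set (1425484_at) was under the floor with IL-6/TGFbeta at 73.8, against 218 with IL-6/IL-23 and 211 with TGFbeta. By its bound it just passed the rule over IL-6/IL-23 (at least 2.00-fold lower) and did not over TGFbeta (at least 1.94-fold lower). IL-6/IL-23 and TGFbeta differed by 0.38 and 0.05 in these 2 probe sets, within 2 SDs of the spread. The third (1442039_at) was under the floor throughout.

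Tox4, a widely expressed member that associates with a protein phosphatase complex on chromatin, differed little. It read 1115 with IL-6/TGFbeta, 787 with IL-6/IL-23 and 922 with TGFbeta, and all pairs of arrays were within 2 SDs of the probe-set spread. IL-6/TGFbeta stood at 0.27 over TGFbeta and 0.50 over IL-6/IL-23, and IL-6/IL-23 stood at -0.23 over TGFbeta. Of the 4 genes of its phosphatase complex above the floor, none was 2-fold apart in any comparison by its brightest probe set. They were Wdr82, the scaffold partner, and the phosphatase catalytic subunits Ppp1ca, Ppp1cb and Ppp1cc, with ratios between -0.71 and 0.61. Over all genes, between 1.66% and 3.52% were called per direction and comparison, so a count of 0 in 4 genes is near these shares. A pair of further Ppp1cb probe sets (1433540_x_at and 1456462_x_at) did pass for IL-6/IL-23 over TGFbeta, at -1.18 and -1.04, where the brightest gave -0.45. Tox3, the remaining family gene, was under the floor on every array.

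Pou2af1 stood in the order IL-6/TGFbeta, IL-6/IL-23, TGFbeta. It read 1404 with IL-6/TGFbeta, 699 with IL-6/IL-23 and 178 with TGFbeta, from a single probe set (1416957_at). As deposited the intensities were 1392 with IL-6/TGFbeta, 512 with IL-6/IL-23 and 250 with TGFbeta. The ratio was 2.98 (7.88-fold) for IL-6/TGFbeta over TGFbeta and 1.97 (3.93-fold) for IL-6/IL-23 over TGFbeta. Between the IL-6/TGFbeta and IL-6/IL-23 arrays the ratio was 1.00 (2.01-fold), which is just inside the 2-fold rule. It was 0.78 after median scaling and 1.44 without scaling, so this call depends on the scaling. Both arrays of cells given IL-6 were above the TGFbeta array under all 4 scalings. With the floor at the 99th percentile the TGFbeta value is under it, so that IL-6/TGFbeta was at least 3.33-fold higher and the call for IL-6/IL-23 was lost (at least 1.66-fold).

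Because Pou2af1 and Cd200 are also B cell genes, B cell markers were read beside them. All 11 measured B cell markers, among them Ms4a1 (CD20), Cd79a, Cd79b and Pax5, were under the floor on every array, with summed levels of 349 with IL-6/TGFbeta, 279 with IL-6/IL-23 and 274 with TGFbeta. Values under the floor have no order, so neither do these sums. The octamer factor gene Pou2f2 (Oct2) was under the floor too, at 55.2 with IL-6/TGFbeta, 106 with IL-6/IL-23 and 76.2 with TGFbeta. Siah1a, whose product targets the Pou2af1 protein for degradation, read 466 with IL-6/TGFbeta, 257 with IL-6/IL-23 and 320 with TGFbeta. No ratio of this brightest probe set reached 2-fold. A further Siah1a probe set (1449733_s_at) did pass for IL-6/TGFbeta over IL-6/IL-23, at 1.05. T cell identity was plain on all arrays: 11 of 11 measured T cell genes were above the floor. By the brightest probe sets, Cd28 was the 1 gene 2-fold apart in a comparison (1.59 for IL-6/IL-23 over TGFbeta). A further Cd28 probe set (1437025_at) gave 1.88 there and also passed for IL-6/TGFbeta over TGFbeta, at 1.20. As deposited, the brightest Cd28 probe set gave 0.76 for IL-6/IL-23 over TGFbeta, under 2-fold. The further one gave 1.03 there and 0.73 for IL-6/TGFbeta over TGFbeta.

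Slamf1, the founding SLAM receptor (CD150), was highest with IL-6/IL-23. Its brightest probe set (1425570_at) read 633 with IL-6/TGFbeta, 1711 with IL-6/IL-23 and 487 with TGFbeta. The ratio was -1.44 for IL-6/TGFbeta over IL-6/IL-23 and 1.81 for IL-6/IL-23 over TGFbeta, while IL-6/TGFbeta and TGFbeta differed by 0.38. A second probe set (1425569_a_at) read 282 with IL-6/TGFbeta, 612 with IL-6/IL-23 and 261 with TGFbeta and gave -1.12, 1.23 and 0.11 for the same pairs of arrays. Without scaling the first probe set gave 0.92 for IL-6/IL-23 over TGFbeta, under 2-fold, and -1.01 for IL-6/TGFbeta over IL-6/IL-23. The second gave 0.30 and -0.65 for these pairs without scaling, both under 2-fold.

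Slamf6 (Ly108), which restrains or sustains T cell and B cell contact depending on SAP, lay near the floor. It read 140 with IL-6/TGFbeta, 156 with IL-6/IL-23 and 110 with TGFbeta. IL-6/TGFbeta stood at 0.35 over TGFbeta and -0.16 over IL-6/IL-23, and IL-6/IL-23 at 0.51 over TGFbeta, all within 2 SDs of the probe-set spread. Another probe set (1420659_at) read 128 with IL-6/TGFbeta, 144 with IL-6/IL-23 and 110 with TGFbeta, and the third was under the floor.

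Sh2d1a was lowest with IL-6/TGFbeta. It read 431 with IL-6/TGFbeta, 1203 with IL-6/IL-23 and 990 with TGFbeta, from 1 probe set (1449393_at). The ratios were -1.20 (2.30-fold lower) over TGFbeta and -1.48 (2.79-fold lower) over IL-6/IL-23, and the other 2 arrays differed by 0.28, within 2 SDs of the spread. SAP is also made in CD8 T cells and NK cells. Markers of these cells were dim. Cd8a read 80.2 with IL-6/TGFbeta, 120 with IL-6/IL-23 and 145 with TGFbeta. Cd8b1 read 104 with IL-6/TGFbeta, 174 with IL-6/IL-23 and 140 with TGFbeta. Both genes were under the floor with IL-6/TGFbeta, so their ratios for that array are bounds, and none reached 2-fold. The 7 measured markers summed to 262 with IL-6/TGFbeta, 405 with IL-6/IL-23 and 418 with TGFbeta, with Klrd1, Ncr1, Klra1, Eomes and Klre1 under the floor on every array. Such values have no order, and the sum leans on them: Eomes alone read 6.69 with IL-6/TGFbeta, 65.3 with IL-6/IL-23 and 107 with TGFbeta. Their part in the Sh2d1a result was not tested. In bulk RNA, fewer cells of a type and less RNA per cell cannot be told apart.

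Cd200 was highest with IL-6/IL-23. It read 586 with IL-6/TGFbeta, 1781 with IL-6/IL-23 and 758 with TGFbeta, from 1 probe set (1448788_at). The ratio was -1.60 (3.04-fold lower) for IL-6/TGFbeta over IL-6/IL-23 and 1.23 for IL-6/IL-23 over TGFbeta. IL-6/TGFbeta and TGFbeta differed by -0.37, within 2 SDs of the spread. As deposited, IL-6/IL-23 over TGFbeta was 0.36, so this call needs the scaling. Of 6 measured genes of its receptor side, the receptor genes Cd200r1, Cd200r3 and Cd200r4 were under the floor on all arrays. The signalling genes Dok1 and Dok2 were not 2-fold apart. Rasa1, a Ras brake, read 1718 with IL-6/TGFbeta, 839 with IL-6/IL-23 and 1949 with TGFbeta, so that it was lowest with IL-6/IL-23 (1.03 for IL-6/TGFbeta over IL-6/IL-23 and -1.22 for IL-6/IL-23 over TGFbeta). Of endothelial and stromal markers, which would go with other sources of Cd200, 6 of 7 were under the floor on all arrays. Pecam1 read 108 with IL-6/TGFbeta, 133 with IL-6/IL-23 and 110 with TGFbeta, and the 7 together summed to 199 with IL-6/TGFbeta, 240 with IL-6/IL-23 and 211 with TGFbeta. These sums lean on values under the floor, which have no order.

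**Figure D2:**
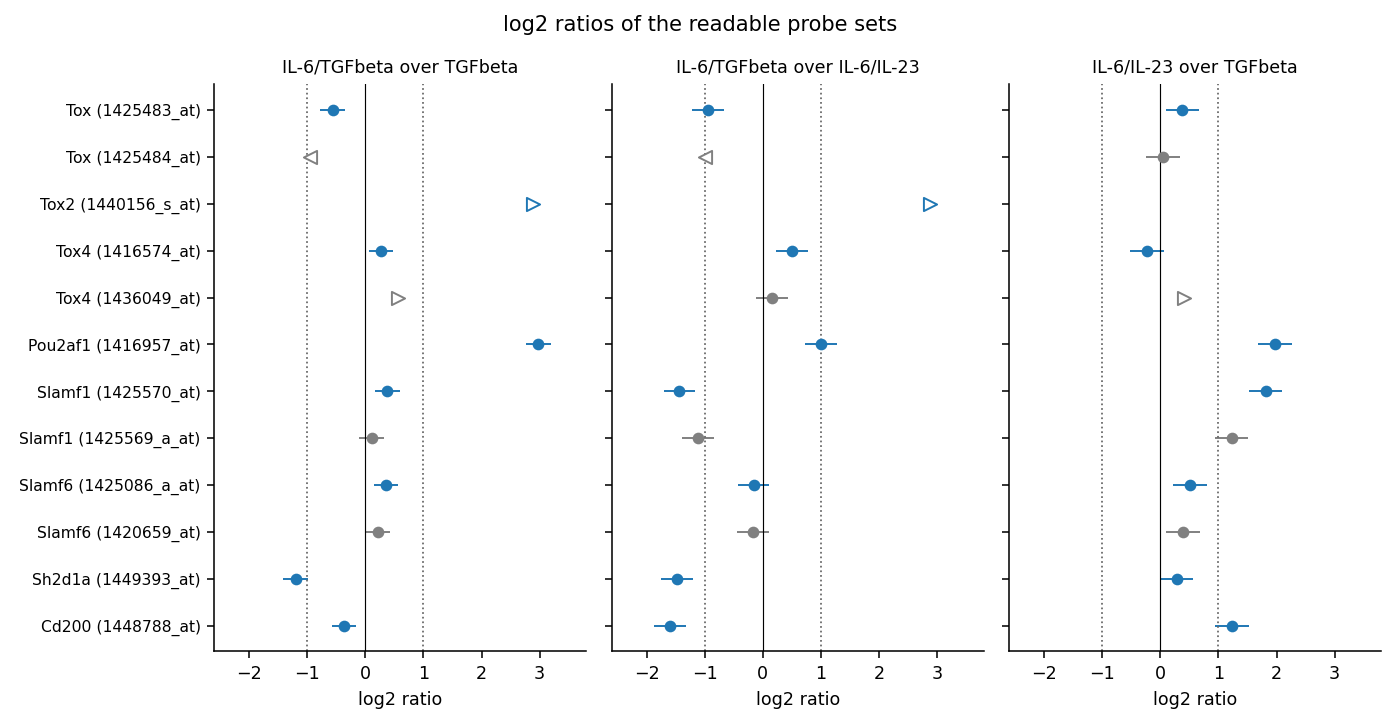
log2 ratios of the 12 probe sets of the 8 genes that could be read, for 3 pairs of arrays. Circles are ratios with both arrays above the floor, with bars of 1 probe-set SD; open triangles are bounds with 1 array under the floor; blue is the brightest probe set of a gene, grey a further one, and dotted lines mark 2-fold.

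Counted together, 2 of the 8 genes were higher with IL-6/TGFbeta than with TGFbeta (Tox2 and Pou2af1), where 2.47% of 7906 genes read were higher. One, Sh2d1a, was lower, where 1.66% of all genes were. The members' median ratio was 0.31, against 0.02 over all genes. Against the IL-6/IL-23 array, 2 were higher with IL-6/TGFbeta (Tox2 and Pou2af1), beside 3.52% of 8031 genes, and 3 were lower (Slamf1, Sh2d1a and Cd200), beside 2.84%. The median was -0.55 here, against -0.04 over all genes. Between IL-6/IL-23 and TGFbeta, 3 of 7 readable members were higher with IL-6/IL-23 (Pou2af1, Slamf1 and Cd200), beside 3.04% of 7996 genes, and 0 were lower, beside 2.93%. The median was 0.51, against 0.05. These genes were chosen with such ratios in view, so nothing is read from the counts. All 3 comparisons share arrays with each other.

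Pou2af1 and Tox2 ranked 7th and 8th from the top of 7906 genes for IL-6/TGFbeta over TGFbeta, with Tox2 placed at its bound. Over IL-6/IL-23, Tox2 ranked 19th of 8031 and Pou2af1 280th. At the other end of that comparison Cd200, Sh2d1a and Slamf1 ranked 77th, 94th and 102nd from the bottom. In the pair IL-6/IL-23 over TGFbeta, Pou2af1 and Slamf1 ranked 55th and 70th from the top of 7996 genes, and Cd200 165th.

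**Figure D3:**
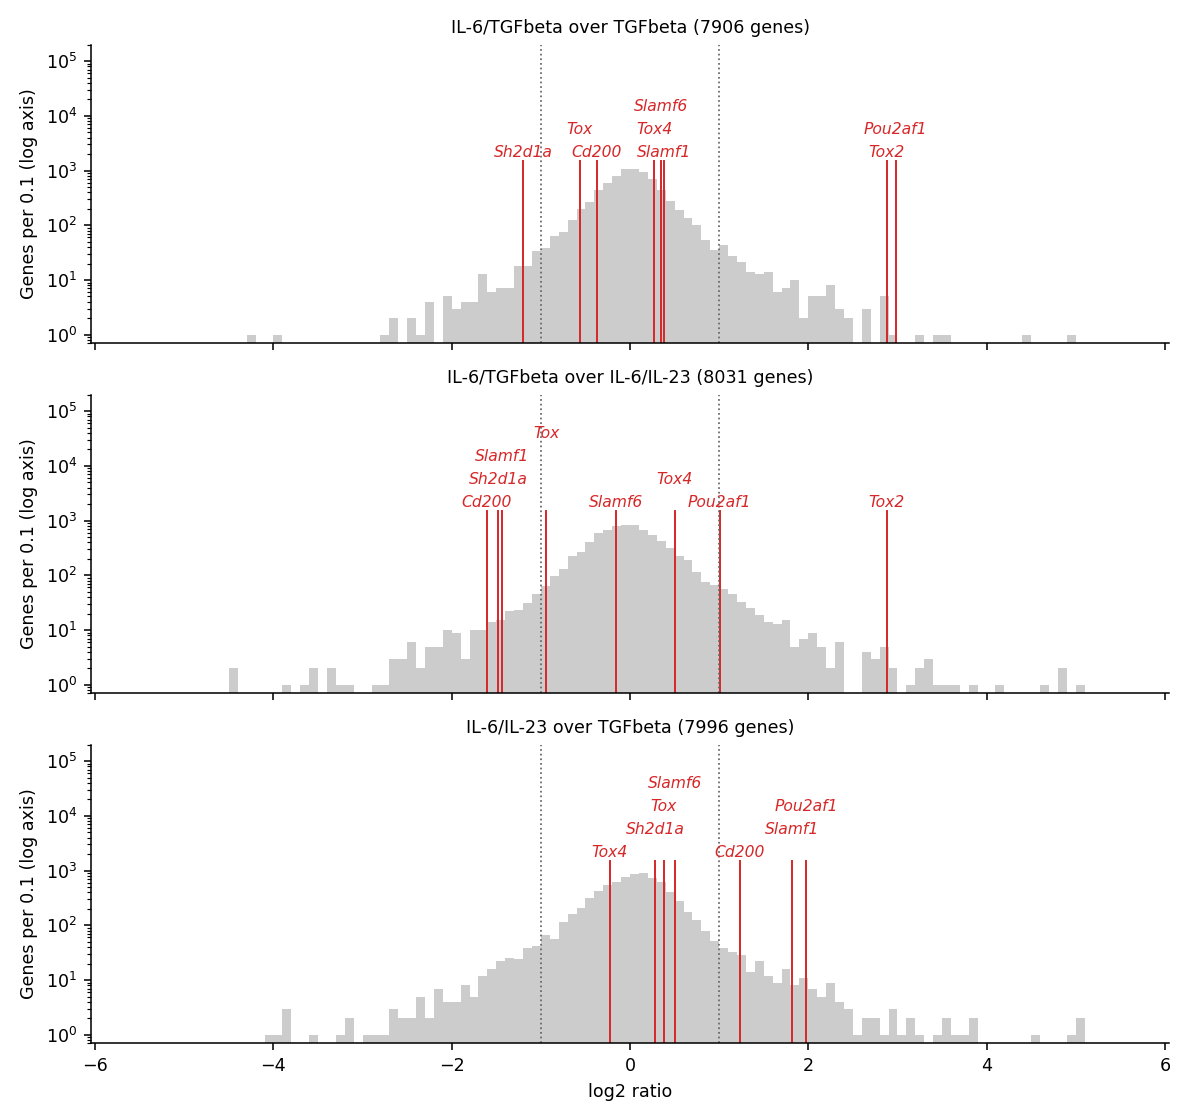
Number of genes per 0.1 of log2 ratio (log axis) in the 3 comparisons, with the readable members as red lines and 2-fold as dotted lines. Tox2, drawn at its bound, and Pou2af1 lie far right for IL-6/TGFbeta over TGFbeta, and Cd200, Sh2d1a and Slamf1 lie together between -1.60 and -1.44 for IL-6/TGFbeta over IL-6/IL-23.

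For each member that passed 2-fold somewhere, the genes most like it were taken as those with the smallest distance between log2 levels centred over the 3 arrays, among 7606 genes above the floor on at least 2 arrays. The gene nearest to Pou2af1 was Socs3, which encodes an inhibitor that IL-6 induces against its own signal, at a distance of 0.11. Socs3 read 3092 with IL-6/TGFbeta, 1518 with IL-6/IL-23 and 426 with TGFbeta. Tiparp and Smim3 followed at 0.51 and 0.52, so Socs3 stood alone near Pou2af1. For Tox2 both values under the floor were set to the floor, and genes above the floor on 1 array only, as Tox2 is, were not among the candidates, so its list leaves out the genes that share its pattern. Among the candidates Basp1 was nearest at 0.35, followed by Emp1 (0.47) and AA467197 (0.48). Basp1, which encodes a membrane-bound signalling protein of growing axons, read 1381 with IL-6/TGFbeta, 141 with IL-6/IL-23 and 192 with TGFbeta.

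Slamf1 was nearest to Kbtbd11 (0.06), Ndrg1 (0.08) and Il12rb1 (0.10), and 18 genes lay within 0.25 of it. Il12rb1, the receptor chain shared by IL-12 and IL-23, read 718 with IL-6/TGFbeta, 1908 with IL-6/IL-23 and 504 with TGFbeta. Sh2d1a was nearest to Hivep3 (0.04), Pdcd1lg2 (0.04) and Ephx1 (0.07). Pdcd1lg2, which encodes the PD-1 ligand PD-L2, read 352 with IL-6/TGFbeta, 1004 with IL-6/IL-23 and 792 with TGFbeta. Cd200 was nearest to Ccdc71l (0.02), Abcd3 (0.06) and Tbkbp1 (0.10). With 3 arrays a profile has 2 free ratios, so a short distance is a description.

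Of 14 other measured genes of SLAM and SAP signalling, 9 were above the floor. For IL-6/TGFbeta over TGFbeta 0 were higher and 0 lower, beside 2.47% and 1.66% of all genes, with a median ratio of 0.02. Over IL-6/IL-23, 1 was higher with IL-6/TGFbeta and 0 were lower (median -0.15), beside 3.52% and 2.84% of all genes. With IL-6/IL-23 over TGFbeta, 1 was higher and 1 lower (median 0.20), beside 3.04% and 2.93%. With 9 genes, counts of 0 or 1 are near these shares. The gene higher in the last pair was Cd84, a SLAM receptor that read 146 with IL-6/TGFbeta, 282 with IL-6/IL-23 and 136 with TGFbeta. As deposited its ratio in that pair was 0.07, so this call needs the scaling. Ly9, another SLAM receptor, read 366 with IL-6/TGFbeta, 581 with IL-6/IL-23 and 360 with TGFbeta and stayed under 2-fold. Inpp5d, the phosphatase SHIP-1 that SLAM receptors recruit when SAP is missing, went the other way. It read 662 with IL-6/TGFbeta, 252 with IL-6/IL-23 and 581 with TGFbeta (1.39 for IL-6/TGFbeta over IL-6/IL-23), and a further probe set gave 0.83. Ptpn6 (SHP-1), a second such phosphatase, read 1679 with IL-6/TGFbeta, 2061 with IL-6/IL-23 and 3076 with TGFbeta and was not 2-fold apart. Fyn, the kinase that SAP brings to SLAM receptors, read 1086 with IL-6/TGFbeta, 1300 with IL-6/IL-23 and 1135 with TGFbeta.

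Of the follicular helper list, 16 of 18 measured genes were above the floor. With IL-6/TGFbeta 5 were higher than with TGFbeta and 0 lower (median 0.32), beside 2.47% and 1.66% of all genes. They were Il21 (at least 21.4-fold), Maf (2.09), Batf (1.60), Cxcr5, the homing receptor of the follicle (at least 2.45-fold), and Il6st (1.26). Over IL-6/IL-23, 14 of the genes could be read. Of these, 3 were higher, namely Maf (3.65), Il6st (1.77) and Cxcr5 (at least 2.45-fold), and 2 were lower (median -0.28), beside 3.52% and 2.84% of all genes. The lower ones were Btla, an inhibitory receptor (-2.02), and Tnfsf8, which encodes CD30 ligand (at least 4.14-fold lower). In the remaining pair 15 could be read. Of these, 6 were higher with IL-6/IL-23 than with TGFbeta and 1, Maf (-1.56), was lower (median 0.45), beside 3.04% and 2.93% of all genes. The 6 were Il21 (at least 24.1-fold), Il4 (at least 3.38-fold), Batf (1.98), Btla (1.48), Tnfsf8 (1.45) and Icos. As deposited, Btla and Tnfsf8 gave 0.58 and 0.49 in this pair, under 2-fold, while Maf stayed lower at -2.51. Icos, the costimulator of follicular helper cells, read 1448 with IL-6/TGFbeta, 2892 with IL-6/IL-23 and 1445 with TGFbeta, just at 2-fold. Bcl6, their defining transcription factor, read 208 with IL-6/TGFbeta, 201 with IL-6/IL-23 and 83.1 with TGFbeta, which is under the floor.

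**Figure D4:**
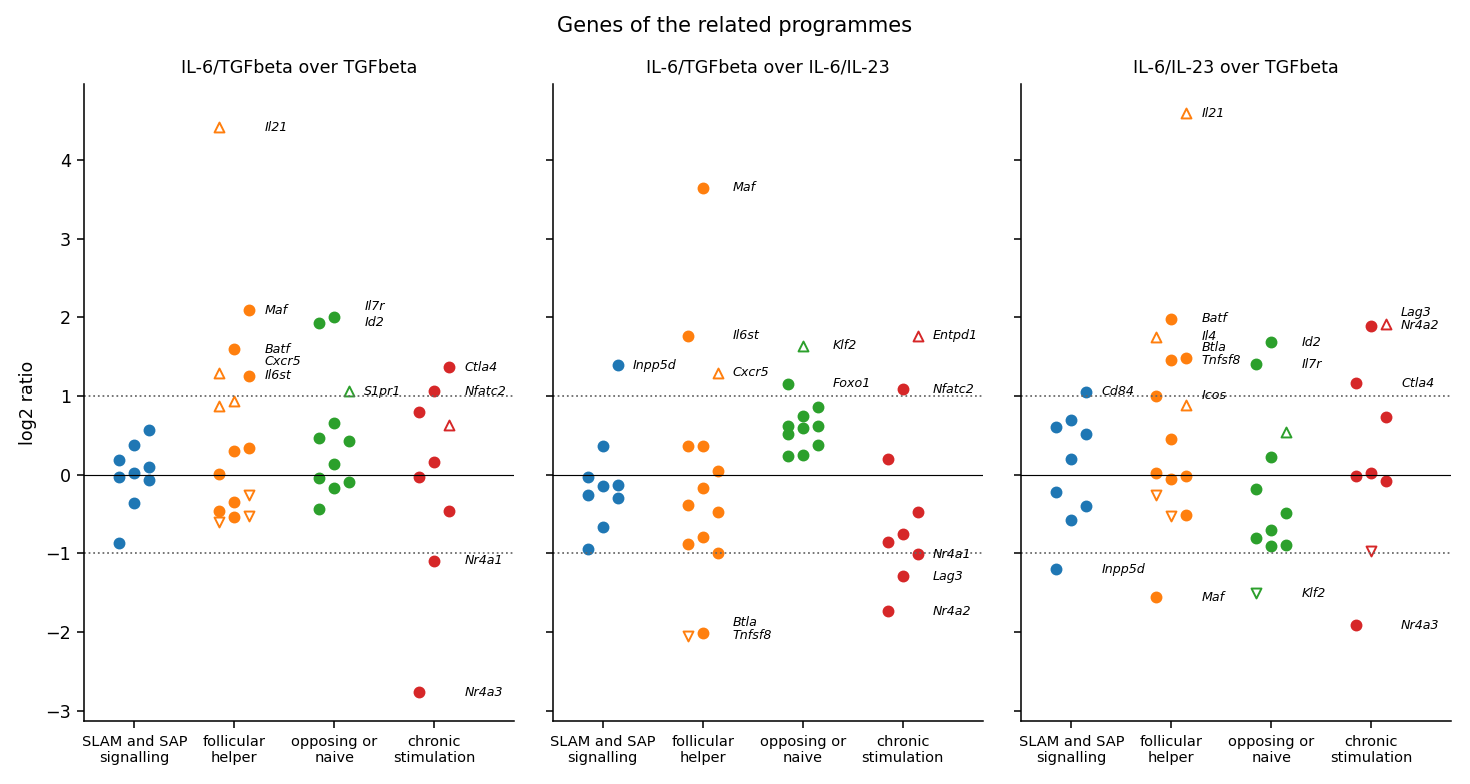
log2 ratios of genes of 4 related lists that could be read, for 3 pairs of arrays; open triangles are bounds, dotted lines mark 2-fold, and genes past it are named. The follicular helper list holds Maf, Il6st and Cxcr5 above 2-fold and Btla and Tnfsf8 below it for IL-6/TGFbeta over IL-6/IL-23.

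Of 12 measured genes that oppose the follicular helper programme or mark resting cells, 11 were above the floor. For IL-6/TGFbeta over TGFbeta 3 were higher and 0 lower (median 0.43), beside 2.47% and 1.66% of all genes: Il7r, the IL-7 receptor (2.00), Id2, an inhibitor of E proteins (1.93), and S1pr1, a receptor for leaving lymph nodes (1.06, a bound). Over IL-6/IL-23 all 11 ratios of the brightest probe sets were positive, between 0.23 and 1.64 (median 0.61, against -0.04 over all genes). A further Id2 probe set (1422537_a_at) gave -0.13 in this pair. Whether all 11 stay positive under other scalings was not tested. By the 2-fold rule 2 of the 11 were higher and 0 lower, beside 3.52% and 2.84% of all genes. They were Klf2 (at least 3.12-fold) and Foxo1 (1.15), transcription factors of resting T cells. Il7r (1.40) and Id2 (1.68) were also higher with IL-6/IL-23 than with TGFbeta, and Klf2 was lower there (median -0.49), beside 3.04% and 2.93% of all genes. A further Il7r probe set (1448576_at) did not pass in that pair, with a bound of 0.75. As deposited, the brightest probe sets of Il7r and Id2 gave 0.44 and 0.80 there, under 2-fold. The further Id2 probe set gave 2.02 there as deposited. Prdm1 (Blimp-1), the antagonist of Bcl6, was under the floor on all arrays.

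Tox in chronically stimulated T cells goes with the Nr4a factors and inhibitory receptors, and those genes did not follow 1 pattern here. Of 9 above the floor, 2 were higher and 2 lower for IL-6/TGFbeta over TGFbeta (median 0.16), beside 2.47% and 1.66% of all genes. Over IL-6/IL-23, 2 were higher and 3 lower (median -0.76), beside 3.52% and 2.84%. Between IL-6/IL-23 and TGFbeta 3 were higher and 1 was lower (median 0.01), beside 3.04% and 2.93%. Nr4a3 read 522 with IL-6/TGFbeta, 943 with IL-6/IL-23 and 3556 with TGFbeta. Nr4a2 read 254 with IL-6/TGFbeta, 848 with IL-6/IL-23 and 228 with TGFbeta, and Lag3, an inhibitory receptor, read 168 with IL-6/TGFbeta, 412 with IL-6/IL-23 and 109 with TGFbeta, under the floor with TGFbeta. As deposited, Nr4a2 and Lag3 gave 0.97 and 0.94 for IL-6/IL-23 over TGFbeta, under 2-fold. Further Nr4a2 probe sets above the floor gave 0.94 to 1.06 there, and Nr4a3 stayed lower at -2.79. Entpd1, which encodes the ectoenzyme CD39, read 371 with IL-6/TGFbeta, 33.6 with IL-6/IL-23 and 214 with TGFbeta and its level with IL-6/TGFbeta was at least 3.41-fold that with IL-6/IL-23. Pdcd1 (PD-1) read 877 with IL-6/TGFbeta, 1222 with IL-6/IL-23 and 1210 with TGFbeta, with no ratio of 2-fold.

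By their brightest probe sets, other factors with an HMG box were not 2-fold apart in any comparison, over 6 above the floor. For IL-6/TGFbeta over TGFbeta 5 of them could be read. Over all genes, between 1.66% and 3.52% were called per direction and comparison, so a count of 0 in 6 genes is near these shares. The median ratio of these factors was -0.34 for IL-6/TGFbeta over TGFbeta, -0.11 over IL-6/IL-23 and -0.10 for the remaining pair. Lef1, a partner of the follicular helper programme, read 1291 with IL-6/TGFbeta, 2244 with IL-6/IL-23 and 1637 with TGFbeta. Hmgb2, an abundant chromatin protein of dividing cells, read 5077 with IL-6/TGFbeta, 5047 with IL-6/IL-23 and 8429 with TGFbeta by its brightest probe set. Another bright one (1452534_a_at) disagreed, at 6761 with IL-6/TGFbeta, 5387 with IL-6/IL-23 and 5464 with TGFbeta. Of 13 myeloid and dendritic markers, 10 were under the floor on every array, and Cd74 read 245 with IL-6/TGFbeta, 133 with IL-6/IL-23 and 181 with TGFbeta. H2-Ab1 read 136 with IL-6/TGFbeta, 202 with IL-6/IL-23 and 121 with TGFbeta, and Mpeg1 was above the floor with TGFbeta alone, at 153. The list summed to 768 with IL-6/TGFbeta, 545 with IL-6/IL-23 and 749 with TGFbeta, sums that lean on values under the floor, which have no order. The deleted genes Stat6 (223 with IL-6/TGFbeta, 191 with IL-6/IL-23 and 259 with TGFbeta) and Tbx21 (118 with IL-6/TGFbeta, 205 with IL-6/IL-23 and 190 with TGFbeta) gave signal on every array. Which exons the deletions removed is not stated, and a probe set outside them checks nothing.

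**Figure D5:**
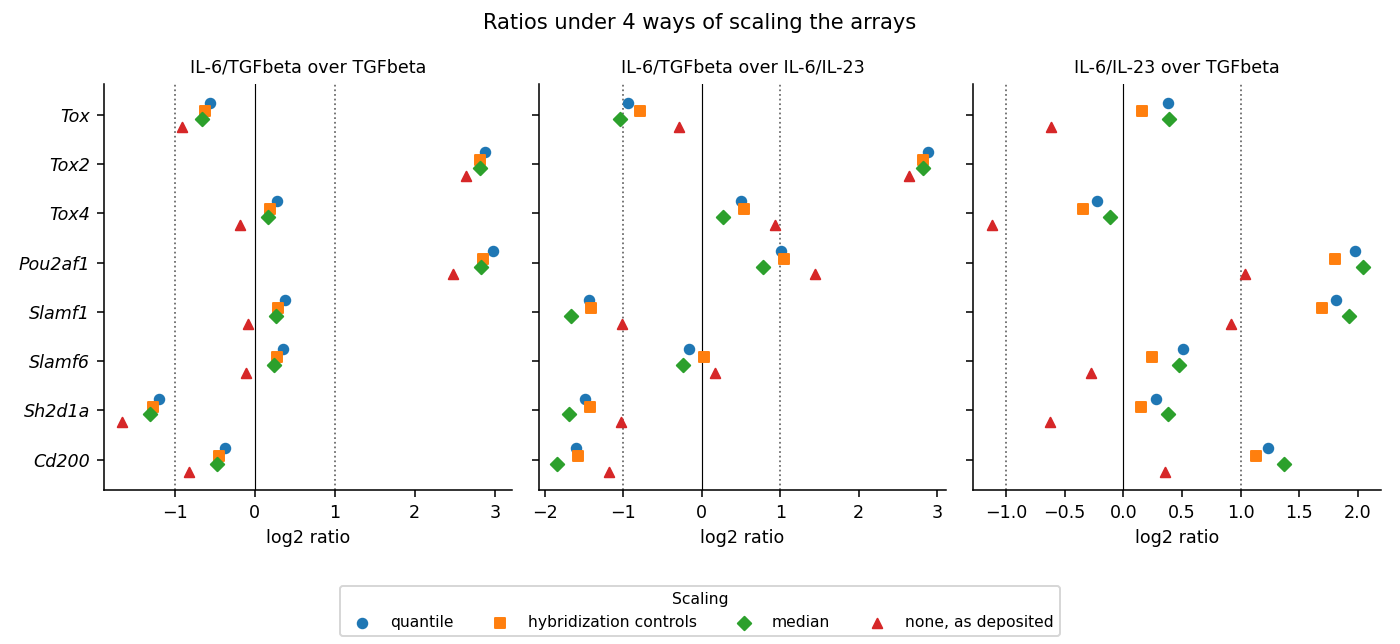
log2 ratios of the 8 genes under quantile normalization, scaling to hybridization controls, scaling to the median, and the deposited values with no scaling. Tox2 is drawn at its bound, except over IL-6/IL-23 after median scaling, where both arrays were above the floor. It has no point for IL-6/IL-23 over TGFbeta. Some points of Tox and Slamf6 without scaling are bounds too, and dotted lines mark 2-fold. Pou2af1 spans 0.78 to 1.44 for IL-6/TGFbeta over IL-6/IL-23, and Cd200 spans 0.36 to 1.37 for IL-6/IL-23 over TGFbeta.

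The scaling moved whole pairs. The median ratio of all genes was -0.42 without scaling for IL-6/TGFbeta over TGFbeta, 0.40 for IL-6/TGFbeta over IL-6/IL-23 and -0.80 for IL-6/IL-23 over TGFbeta, and after median scaling it was -0.08, -0.21 and 0.13 for the same pairs. The split of all genes into higher and lower moved too. For IL-6/TGFbeta over TGFbeta 195 genes were higher and 131 lower after quantile normalization, 160 and 161 with hybridization controls, 151 and 171 after median scaling, and 91 and 496 without scaling. Over IL-6/IL-23 the same 4 scalings gave 283 higher and 228 lower, 325 and 186, 210 and 362, and 712 and 93. IL-6/IL-23 over TGFbeta gave 243 higher and 234 lower, 183 and 329, 294 and 236, and 63 and 2504. In that pair the shift without scaling was larger than the whole ratio of Tox, Tox4, Slamf6 or Sh2d1a. There Tox, Slamf6 and Sh2d1a turned to -0.62, -0.27 and -0.63 without scaling, so their direction was not settled, and Tox4 stood at -1.12. The small ratios of Tox4, Slamf1 and Slamf6 for IL-6/TGFbeta over TGFbeta, and of Slamf6 over IL-6/IL-23, changed sign without scaling as well, the last also with hybridization controls (0.03). By their brightest probe sets, Slamf1, Cd200 and Sh2d1a were at least 2-fold lower with IL-6/TGFbeta than with IL-6/IL-23 under all 4 scalings. Their ratios were -1.01 to -1.67, -1.18 to -1.84 and -1.03 to -1.69. The second Slamf1 probe set (1425569_a_at) gave -0.65 without scaling, which is under 2-fold.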

How the data were processed

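The values are intensities that the authors deposited, linear and 1 per probe set and array, from Affymetrix mouse arrays hybridized with biotinylated cRNA, per the labels' protocols. How probes were summarized, corrected for background and scaled is not given in the sources used here. Of 45101 probe sets 64 are controls and were dropped, and the log2 intensities of the rest were quantile-normalized (limma 3.58.1, R 4.3.3), which removes any real difference in total mRNA. Of the 45037 probe sets, 34945 carried 1 gene symbol by the platform annotation, 932 several genes and 9160 none here. Of the 34945, 34741 probe sets had an Entrez identifier that matched RefSeq (GRCm38.p6), renaming 0 symbols. The floor came from 81 probe sets of 44 tissue-restricted genes. The rule for calls was run on simulated arrays, with changes planted only in genes well above the floor. The simulation held no differences between cultures or mice, and it says nothing of calls near the floor, such as Tox2. The number of arrays, 1 per condition, limits the precision, so no test was made. The members and lists were chosen with earlier results of these data known. Named genes were the members, Stat6 and Tbx21, up to 4 genes per list by largest ratio (by level for markers of other cells), and the 3 nearest profiles; further genes named from the lists were chosen after their values were seen. The 11 alternatives tried were other scalings, floors, fold rules, probe set rules and a pseudocount; 1 of them, a floor, was added after seeing the data.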

Additional observations from a re-analysis of the deposited data

How the results depend on the processing

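No paired analysis was possible because each condition has 1 array. Of 66 counts of members under 11 alternatives, 53 were within 1.5 times the count reported, and of 194 member ratios 160 moved by less than 1 probe-set SD; no ratio that passed 2-fold turned its sign, while several smaller ones did without scaling. For IL-6/TGFbeta over TGFbeta, 1 member was higher with the floor at the 99th percentile, with the mean of all probe sets and without probe sets ending in _s_at, _x_at or _a_at, because Tox2 was lost, and 0 were lower with the 3-fold rule. For IL-6/TGFbeta over IL-6/IL-23, 1 was higher under the same 3 settings, again without Tox2. In this pair 1 was also higher after median scaling, with the 3-fold rule and with log2(intensity + 32), each without Pou2af1, and 1 was lower with the 3-fold rule (Cd200). For IL-6/IL-23 over TGFbeta, 1 was higher and 1 lower (Tox4) without scaling. The 99th percentile put the floor at 422 and left 5 to 6 members readable. Mbp probe sets were the brightest of the floor list. Mbp is known to be expressed in T cells too, and leaving it out, a choice made after seeing the data, put the floor at 87.8 and the Tox2 bound over TGFbeta at 3.19 on the log2 scale. Over 7 alternatives that bound lay between 0.93 and 4.09. Differences between cultures cannot be seen with 1 array each.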

Other observations

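Genes beside the members on the RefSeq map were read as well, taking the 2 nearest protein-coding genes on each side. Of 29 such genes that are not members, 22 were on the array and 13 were above the floor on at least 1 array. Of these 13, 0 were 2-fold apart for IL-6/TGFbeta over TGFbeta, 1 for IL-6/TGFbeta over IL-6/IL-23 and 2 for IL-6/IL-23 over TGFbeta. The genes in these counts were Btla, in both pairs, and Cd84. As deposited, Btla and Cd84 gave 0.58 and 0.07 for IL-6/IL-23 over TGFbeta, so these calls need the scaling. Btla gave -1.59 as deposited for IL-6/TGFbeta over IL-6/IL-23. Among all genes, between 1.66% and 3.52% were called per direction and comparison. Counts of 0, 1 and 2 in 13 genes are too small to be set apart from these shares. Btla and Cd84 each lie beside a member that was highest with IL-6/IL-23, but no pattern is read from 2 genes. Btla, next to Cd200, read 727 with IL-6/TGFbeta, 2943 with IL-6/IL-23 and 1057 with TGFbeta, and Atg3, an autophagy gene on the far side of Btla, read 1465 with IL-6/TGFbeta, 2825 with IL-6/IL-23 and 1478 with TGFbeta, just under 2-fold (-0.95 for IL-6/TGFbeta over IL-6/IL-23 and 0.93 for IL-6/IL-23 over TGFbeta). Cd84 lies between Slamf1 and Slamf6 and read 146 with IL-6/TGFbeta, 282 with IL-6/IL-23 and 136 with TGFbeta, while Slamf6 itself read 140 with IL-6/TGFbeta, 156 with IL-6/IL-23 and 110 with TGFbeta, and Cd48, on the far side of Slamf1, read 1590 with IL-6/TGFbeta, 1748 with IL-6/IL-23 and 2044 with TGFbeta. The neighbours of Tox2 above the floor, Mybl2 and Oser1, had ratios between -0.29 and 0.36. The other 2 genes beside Tox2, Gtsf1l and Jph2, were under the floor on every array. Whether shared regulation of neighbours has a part in these levels was not tested.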
